A study of Mus musculus with 8 samples.

Results

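Genes of MHC class II antigen presentation were described in splenic Ly6Chigh monocytes, the inflammatory subset in mice, sorted from Olfr2 knockout (KO) mice and of wild-type (WT) mice. The 8 genes were taken by symbol from the count table, which lists 56748 genes, and are H2-Aa, H2-Ab1, H2-Eb1, Cd74, H2-DMa, H2-DMb1, H2-DMb2 and Ciita. All 8 passed the filter on low counts, as did 11222 genes in all. The deleted gene codes for an odorant receptor, whose role in drawing monocytes into abdominal aortic aneurysms is the subject of the study. There were 4 libraries of KO mice and 4 of WT mice, and all 8 came from mice at day 7 after induction of an aneurysm, so that both genotypes share the induction and the sort. The sources used here do not give the method of induction, the Olfr2 allele, or the strain, sex and age of the mice. Whether 1 animal or several gave a library is likewise unstated, and the p-values therefore speak only of the spread between libraries, which may be technical.

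MHC class II molecules are pairs of an alpha and a beta chain that carry peptides of ingested proteins to the cell surface, where CD4+ T cells read them. The invariant chain, encoded by Cd74, fills the peptide groove during transport, and H2-DM, itself a pair of alpha and beta chains, exchanges the remnant of the invariant chain for peptide in the endosome. CIITA is the coactivator on which transcription of these genes depends. It binds no DNA itself and works through factors (RFX, CREB and NF-Y) held on a conserved set of promoter boxes, among them the X box and the Y box. B cells, dendritic cells and activated macrophages carry much class II, and monocytes acquire it as they turn towards antigen-presenting cells.

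The promoter boxes are shown because class II genes are known for them. RefSeq promoter windows (GRCm38.p6, from 250 bases before to 50 bases after a gene start) were found for 5 of the 8 members, namely H2-Aa, H2-Eb1, H2-DMa, H2-DMb1 and H2-DMb2. The X letters CTNNNAAC, followed 30 to 45 bases later by the Y letters ATTGG, were searched on both strands, and this pattern was written after the members' own windows had been read. It occurred in windows of 4 members and in 0.67% of all 32851 windows, where the X letters alone occurred in 41.1% and the Y letters alone in 37.4%. In the lines below, given 5′ to 3′ on the strand of the gene, capitals mark the X letters and then the Y letters, which do not overlap.
H2-Aa: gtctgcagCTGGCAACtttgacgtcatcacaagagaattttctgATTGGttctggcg
H2-Eb1: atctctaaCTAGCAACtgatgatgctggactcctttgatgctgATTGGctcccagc
H2-DMb1: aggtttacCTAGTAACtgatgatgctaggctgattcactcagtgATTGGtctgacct
H2-DMb2: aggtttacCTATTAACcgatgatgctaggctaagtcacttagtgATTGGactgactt

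These segments lie at chr17:34287859-34287915 on the minus strand (H2-Aa) and, on the plus strand, at chr17:34305765-34305820 (H2-Eb1), chr17:34153086-34153142 (H2-DMb1) and chr17:34145115-34145171 (H2-DMb2). From the first X letter to the first Y letter there were 36 bases in H2-Aa, H2-DMb1 and H2-DMb2 and 35 in H2-Eb1. The X letters began 84 bases before the RefSeq gene start in H2-Aa, 94 in H2-Eb1, 97 in H2-DMb1 and 126 in H2-DMb2. H2-DMb1 and H2-DMb2 had the same base at 50 of 57 positions of this stretch. The pattern was not in the H2-DMa windows. The stretches of H2-DMb1 and H2-DMb2 lie inside the gene limits of GENCODE M21 given with their values, which begin farther upstream than those of RefSeq.

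The libraries held between 17258427 and 21728794 counts in KO mice and between 16111725 and 19048245 in WT mice. Olfr2 had 0 counts in each of the 8 libraries, and could not check the genotype labels: 0 counts allow between 0.139 and 0.186 CPM (counts scaled to a common library size) in a library, counting error only. Markers of the labelled cell type were present in every library: the monocyte and macrophage lysozyme gene Lyz2 alone took 10.2% to 11.9% of all counts, Ly6c2, which encodes a Ly6C antigen of the sort, averaged 5195 ± 791 CPM in KO and 4572 ± 359 CPM in WT (SD, n = 4 each), and the chemokine receptor gene Ccr2 averaged 1815 ± 469 CPM in KO and 1516 ± 317 CPM in WT. The count table names its columns with numbers that fall in a 1600 series (KO 1, KO 2, WT 1 and WT 2) and a 1700 series (KO 3, KO 4, WT 3 and WT 4), whose meaning the labels do not state. KO 1 and KO 2 stood apart from the other 6 libraries in the sum of neutrophil transcripts, though not in each of these genes. Results are therefore given by series and without these 2 libraries as well. The split by series was thus made with values known, so that its p-values, and those of the interaction, describe these libraries.

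Class II transcripts were low in KO 1 and KO 2 and closer to the WT level in KO 3 and KO 4. The 8 genes together took 0.277%, 0.185%, 0.63% and 0.709% of all counts in KO 1 to 4, against 0.762%, 0.945%, 0.779% and 0.692% in WT 1 to 4. Each of the 8 genes was lower in KO 1 and in KO 2 than in any of the other 6 libraries, which was so for 7.7% of tested genes, where 26.7% had KO 1 and KO 2 both below WT 1 and WT 2. In cells sorted in bulk, fewer cells that express a gene and less RNA per cell cannot be told apart. Levels are CPM scaled by the TMM method, and fold changes are log2 differences, KO minus WT.

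**Figure D1:**
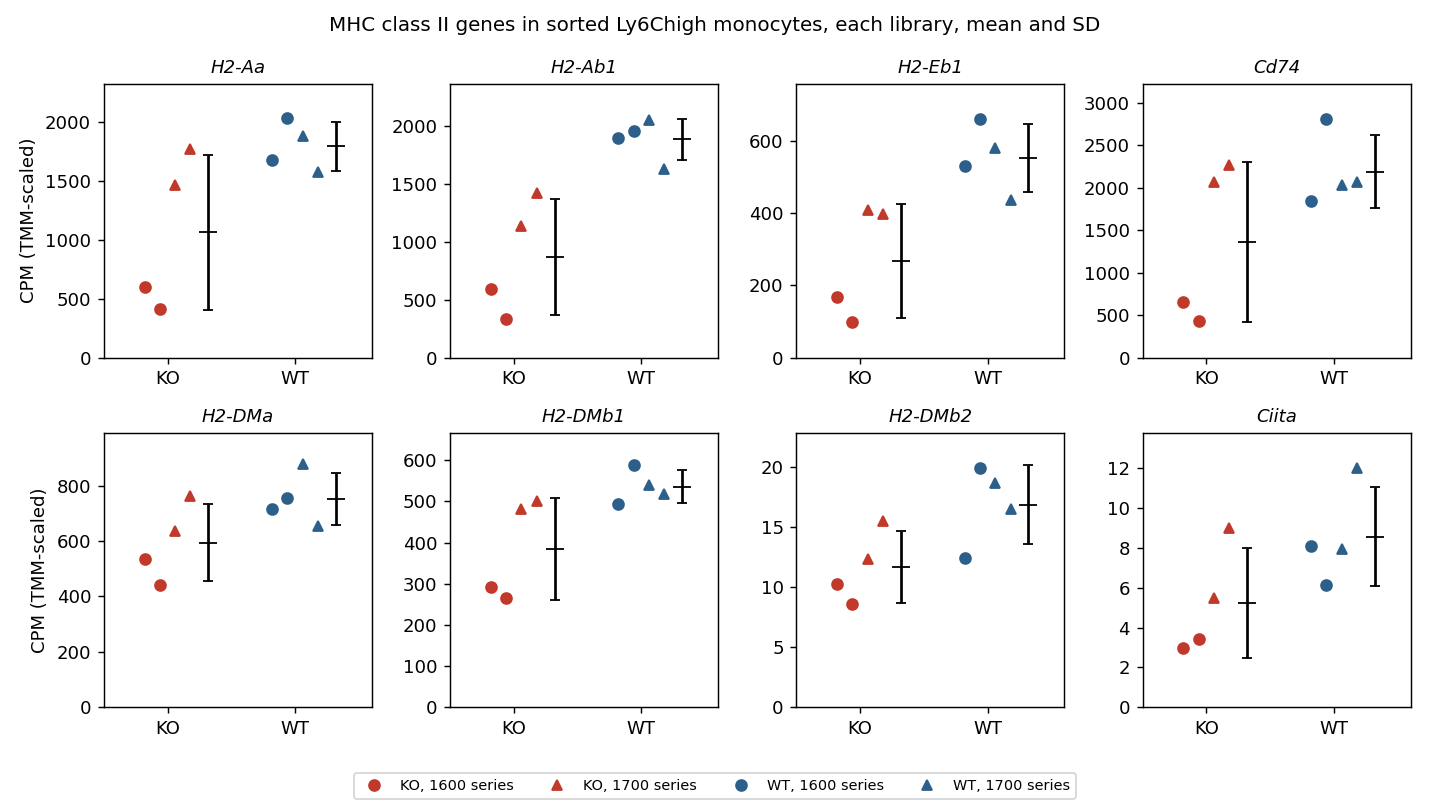
Level of the 8 class II genes in each library (TMM-scaled CPM, linear axis from 0), KO left and WT right, with circles for the 1600 series, triangles for the 1700 series, and a black mark and bars for the mean and SD over 4 libraries. In every panel the 2 KO circles lie lowest, and the KO triangles lie nearer to the WT points.

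H2-Aa, the gene of the I-A alpha chain (ENSMUSG00000036594; GRCm38 chromosome 17, 34282744 to 34287823), had 599, 414, 1471 and 1774.8 CPM in KO 1 to 4, against 1678, 2036, 1887 and 1579.6 CPM in WT 1 to 4. KO 4 lay above WT 1 and WT 4, so that the genotypes overlapped. H2-Ab1, the gene of the I-A beta chain (ENSMUSG00000073421; chromosome 17, 34257689 to 34269419), had 589.8, 334, 1134 and 1425 CPM in KO 1 to 4, against 1898, 1953, 2053 and 1632 CPM in WT 1 to 4. Here all 4 KO libraries lay below all 4 WT libraries. H2-Eb1, the gene of the I-E beta chain (ENSMUSG00000060586; chromosome 17, 34305867 to 34316674), had 167, 97.6, 408 and 397 CPM in KO 1 to 4, against 531, 661, 581 and 437 CPM in WT 1 to 4. It was the other member without overlap, so that 2 of 8 members had every KO library below every WT library, against 6.06% of all tested genes. H2-Ea, the gene of the I-E alpha chain, which mice of the H2-b haplotype do not make, had 0 counts in all 8 libraries.

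Cd74, the gene of the invariant chain (ENSMUSG00000024610; chromosome 18, 60803848 to 60812652), had 661, 437, 2067 and 2264 CPM in KO 1 to 4, against 1849, 2812, 2034 and 2068 CPM in WT 1 to 4. KO 3 and KO 4 thus lay within the range of the WT libraries, while KO 1 and KO 2 lay far below it. The peptide exchange chain gene H2-DMa (ENSMUSG00000037649; chromosome 17, 34119541 to 34139101) had 536, 442, 636 and 764 CPM in KO 1 to 4, against 718, 757, 878 and 653 CPM in WT 1 to 4. Its partner H2-DMb1 (ENSMUSG00000079547; chromosome 17, 34153072 to 34160230) had 292, 264.5, 481 and 499.9 CPM in KO 1 to 4, against 494, 589, 541 and 519 CPM in WT 1 to 4. Both H2-DM genes were lowest in KO 1 and KO 2 and spanned a smaller range than the I-A and I-E chains, and the genotypes overlapped in both.

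H2-DMb2 (ENSMUSG00000037548; chromosome 17, 34143307 to 34151555), a second beta chain gene beside H2-DMb1, had 10.2, 8.61, 12.3 and 15.6 CPM in KO 1 to 4, against 12.4, 19.9, 18.7 and 16.5 CPM in WT 1 to 4. It gave 2.5% to 3.38% of the reads of both beta chain genes in KO and 2.46% to 3.34% in WT. The principal transcripts of H2-DMb1 and H2-DMb2 are 75.3% identical over 1573 aligned bases, with a longest identical run of 221 bases, so that reads could be lost or assigned to the wrong copy and the H2-DMb2 level is uncertain. Ciita, the gene of the coactivator (ENSMUSG00000022504; chromosome 16, 10480059 to 10528418), had 2.99, 3.44, 5.51 and 9.01 CPM in KO 1 to 4, against 8.12, 6.14, 7.94 and 12.04 CPM in WT 1 to 4. It rested on 50 to 194 counts per library, for a counting error of up to 14.1%, where the chains and Cd74 had at least 1586 counts in each library. By GENCODE M21, 360 exonic bases of H2-DMa overlap Brd2 and 329 of Ciita overlap Dexi, each on the other strand, and 12 of Cd74 overlap Mir5107, so that reads there could not be told apart if strand was not used in counting.

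Per kilobase of principal transcript, H2-Aa, H2-Ab1 and Cd74 had the highest levels in each library. By the mean of the 4 KO libraries the order was Cd74 (963 ± 667 CPM per kilobase, SD, n = 4), H2-Aa (944 ± 586), H2-Ab1 (718 ± 411), H2-DMa (358 ± 83.2), H2-DMb1 (274 ± 87.7), H2-Eb1 (160 ± 95.2), H2-DMb2 (8.21 ± 2.10) and Ciita (0.87 ± 0.46). In WT it was H2-Aa (1591 ± 182), H2-Ab1 (1555 ± 148), Cd74 (1554 ± 301), H2-DMa (453 ± 57.0), H2-DMb1 (381 ± 28.8), H2-Eb1 (331 ± 56.2), H2-DMb2 (11.9 ± 2.31) and Ciita (1.42 ± 0.41). The KO means join unlike libraries: in KO 1 and KO 2 H2-Aa led, with 531 and 367 CPM per kilobase, against 469 and 310.1 for Cd74, while Cd74 led in KO 3 and KO 4. In WT the top 3 did not differ by more than 1 SD, nor did H2-DMb1 and H2-Eb1. In KO no neighbours from Cd74 down to H2-DMb1 differed by more than the larger of their SDs, while H2-Eb1 lay below H2-DMb1 by more than either.

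Over all 8 libraries none of the members passed the test. The edgeR quasi-likelihood test, with Benjamini-Hochberg adjustment over all tested genes and a threshold of 0.05, called 0 of 8, where it called 0.838% of tested genes lower. DESeq2, with 763 genes called in all, called 0 of 8, and limma-voom called 0 of all tested genes, so that its 0 says nothing of the members or of the lists described further on. At an unadjusted p under 0.05 there were 3 of 8 (H2-Ab1, H2-DMb1 and H2-DMb2), all lower, against 12% of tested genes lower and 20.9% in either direction. All 8 values were negative, with a median of -0.69 over the members and of -0.0039 over all tested genes. The largest were those of H2-Ab1, at -1.11 ± 0.42 (SE; edgeR adjusted p = 0.197), and H2-Eb1, at -1.05 ± 0.46 (edgeR adjusted p = 0.255). The smallest was that of H2-DMa, at -0.34 ± 0.16 (edgeR adjusted p = 0.246). Ciita stood at -0.69 ± 0.33 (edgeR adjusted p = 0.254), and at -0.22 with length and GC offsets (edgeR adjusted p = 0.769) and -1.10 without KO 4 (edgeR adjusted p = 0.0663). Cd74 stood at -0.69 ± 0.55 (edgeR adjusted p = 0.519). Without KO 1 and KO 2 the median over the members was -0.18, with Cd74 at -0.01 and H2-Ab1 at -0.55 (edgeR adjusted p = 0.144), and 0 members were called.

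Within the 1600 series 5 of 8 members were called lower in KO, against 0.713% of tested genes. They were the 3 chain genes, Cd74 and H2-DMb1. At an unadjusted p under 0.05 all 8 members were lower (edgeR), against 9.32% of tested genes. H2-Eb1 changed by -2.17 ± 0.25 (SE; edgeR adjusted p = 0.0108), to a mean of 132 CPM in KO 1 and KO 2, against 596 CPM in WT 1 and WT 2. Cd74 changed by -2.08 ± 0.23 (edgeR adjusted p = 0.00816), to 549 CPM in KO, against 2331 CPM in WT. H2-Ab1 changed by -2.06 ± 0.25 (edgeR adjusted p = 0.0141) and H2-Aa by -1.87 ± 0.19 (edgeR adjusted p = 0.00193). These 4 levels in KO were thus 0.222 to 0.273 of those in WT. With Ciita, 5 of 8 members had a value under -1, against 4.53% of tested genes.

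The H2-DM genes and Ciita moved less in the same series. H2-DMb1 changed by -0.96 ± 0.13 (SE; edgeR adjusted p = 0.0108), a call lost without KO 2 or without WT 2. With 1 library left out its value ranged from -1.08 to -0.82. The chain genes and Cd74 kept their calls under all 12 alternatives tried by series. These changed only the scaling factors, the count filter or the left-out library, within edgeR. Ciita stood at -1.14 ± 0.33 (edgeR adjusted p = 0.0941), H2-DMb2 at -0.78 ± 0.26 (edgeR adjusted p = 0.129) and H2-DMa at -0.59 ± 0.17 (edgeR adjusted p = 0.0897), none past the threshold. Without WT 2 the H2-DMb2 value was -0.40 (edgeR adjusted p = 0.553). H2-DMa passed without WT 3 or without WT 4 (edgeR adjusted p = 0.0409 and 0.043). The median over the members was -1.51, and over all tested genes -0.04.

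Within the 1700 series 0 of 8 members were called, at an adjusted or an unadjusted p under 0.05 (edgeR), where 1.1% of tested genes were called lower and 1.38% in either direction, and 22.7% had an unadjusted p under 0.05. The median over the members was -0.23. H2-Ab1 stood at -0.53 ± 0.24 (SE; edgeR adjusted p = 0.241), Cd74 at 0.08 ± 0.22 (edgeR adjusted p = 0.866) and H2-Aa at -0.10 ± 0.19 (edgeR adjusted p = 0.799). Both KO libraries lay below both WT libraries in 4 of 8 members (H2-Ab1, H2-Eb1, H2-DMb1 and H2-DMb2), against 28.3% of tested genes.

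The genotype difference itself was tested between the series, as the 1700 value minus the 1600 value. It was positive in all 8 members, and 3 of them passed, against 0.312% of tested genes called positive and 0.784% in either direction. Cd74 had an interaction of 2.16 ± 0.32 on the log2 scale (SE; edgeR adjusted p = 0.0369), H2-Aa of 1.78 ± 0.27 (edgeR adjusted p = 0.0369) and H2-Eb1 of 1.84 ± 0.34 (edgeR adjusted p = 0.0494). H2-Ab1, at 1.53 ± 0.35 (edgeR adjusted p = 0.0811), and H2-DMb1, at 0.85 ± 0.19 (edgeR adjusted p = 0.0591), did not pass. Each series held 2 libraries per genotype, and leaving out KO 2, KO 3, KO 4, WT 2 or WT 3 left 0 calls among the members (edgeR), with 2 left without WT 1, 3 without WT 4 and 4 without KO 1.

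**Figure D2:**
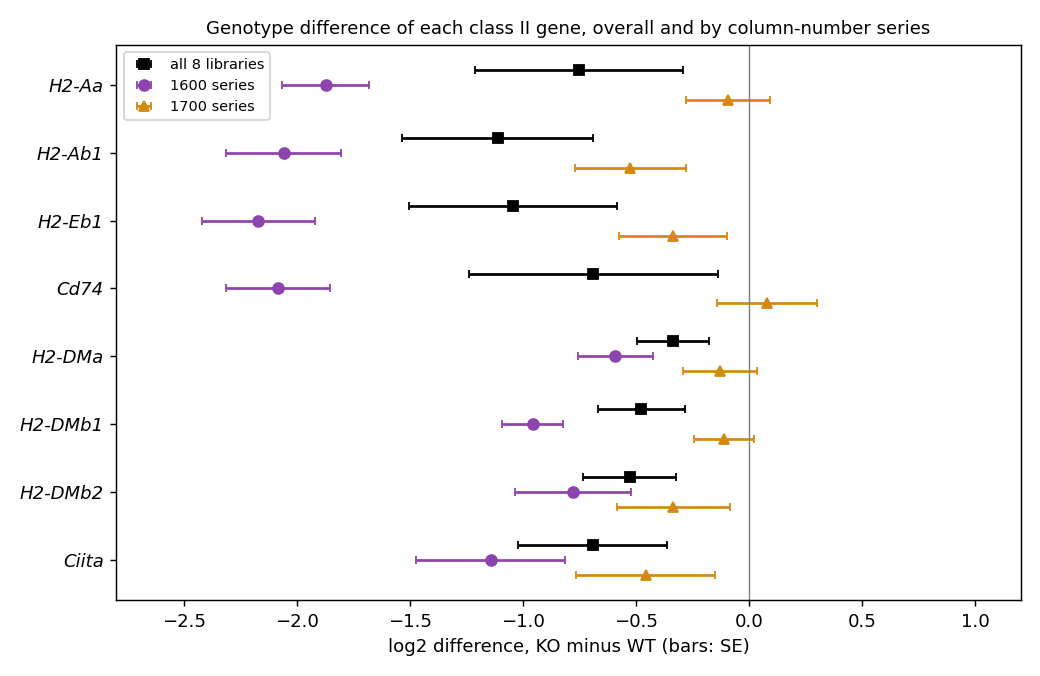
Log2 difference between KO and WT for each class II gene, with SE bars, over all 8 libraries (black squares), in the 1600 series (purple circles) and in the 1700 series (orange triangles). The chain genes and Cd74 lie between -2.17 and -1.87 in the 1600 series and between -0.53 and 0.08 in the 1700 series.

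Ratios within a library do not depend on its scaling. Per kilobase, H2-DMa stood to H2-Ab1 at 0.664, 0.967, 0.41 and 0.392 in KO 1 to 4, against 0.276, 0.283, 0.313 and 0.292 in WT 1 to 4. All 4 KO libraries lay above all 4 WT libraries, including those of the 1700 series. H2-DMb1 to H2-Ab1 was likewise higher in every KO library, at 0.303 to 0.684 in KO and 0.225 to 0.274 in WT. So was H2-DMb2 to H2-Ab1, at 0.00925 to 0.0219 in KO and 0.00558 to 0.00868 in WT. Ciita to H2-Ab1 overlapped between the genotypes. H2-DMb1 to H2-DMa, the partners of one dimer, overlapped, at 0.754 ± 0.106 in KO and 0.849 ± 0.098 in WT (SD, n = 4 each). The pair H2-Aa to H2-Ab1, whose products form I-A, stood at 1.09, 1.33, 1.39 and 1.34 in KO 1 to 4, against 0.95, 1.12, 0.987 and 1.04 in WT 1 to 4. Only KO 1 fell within the WT range there. Cd74 to H2-Ab1 was 1.26 ± 0.27 in KO and 1.00 ± 0.19 in WT, and H2-Eb1 to H2-Ab1 was 0.22 ± 0.03 in KO and 0.212 ± 0.023 in WT, both with overlap. H2-Ab1 itself was lower in every KO library than in every WT library, so that a gene that changed less tends to a higher ratio in KO. How many of all tested genes have such a ratio to H2-Ab1 was not computed. These ratios were not tested, and their level depends on the transcript lengths taken.

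**Figure D3:**
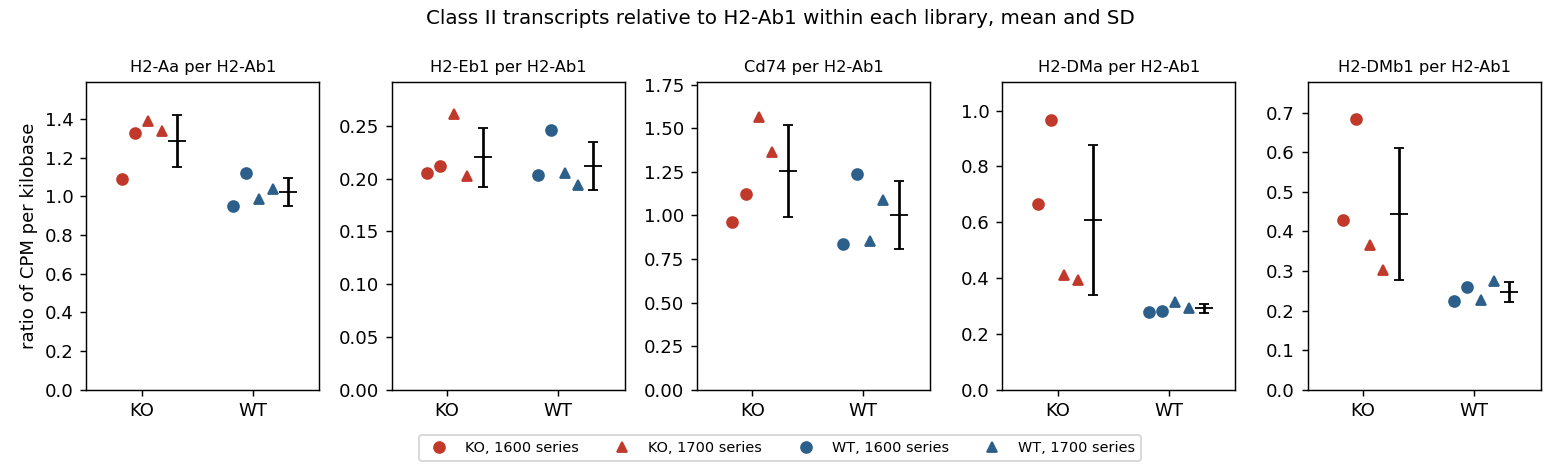
Ratio of 5 class II genes to H2-Ab1 within each library (CPM per kilobase, linear axis from 0), KO left and WT right, circles for the 1600 and triangles for the 1700 series, with mean and SD. The H2-DMa and H2-DMb1 ratios are higher in every KO library than in every WT library, and the H2-Eb1 ratio overlaps. H2-Ab1, the divisor, is itself lower in every KO library.

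Other genes of the pathway were taken from 7 lists (class II locus, promoter box factors, inducers of Ciita, antigen processing, surface turnover, costimulation and Cd74 receptor partners), with 40 genes in the table and 37 tested, and a median of -0.05 over all libraries, -0.20 in the 1600 and 0.08 in the 1700 series. Over all libraries 0 of 37 passed (edgeR and DESeq2), where edgeR called 1.06% of tested genes. At an unadjusted p under 0.05 there were 2 higher and 2 lower (edgeR), against 20.9% of tested genes in either direction. In the 1600 series 1 was called higher and 2 lower (edgeR), against 1.85% of tested genes called in either direction. Those called lower were Cd40, the receptor through which T cells license antigen-presenting cells, at -1.63 ± 0.22 (SE; edgeR adjusted p = 0.0108), and Cd83, whose product stabilises class II at the surface, at -1.50 ± 0.26 (edgeR adjusted p = 0.0248). The one called higher was the lysosomal protease gene Ctsd, at 0.69 ± 0.15 (edgeR adjusted p = 0.0402). In the 1700 series 0 of 37 passed, against 1.38% of tested genes. There were 3 higher and 1 lower at an unadjusted p under 0.05 (edgeR), against 22.7% of tested genes.

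Of the remaining class II locus genes, H2-Oa and H2-Ob, whose products pair as an inhibitor of H2-DM, stood at -0.20 ± 0.31 and -0.18 ± 0.23 over all libraries (SE; edgeR adjusted p = 0.751 and 0.70). They were scarce, at 1.65 ± 0.24 CPM in KO and 1.88 ± 0.65 CPM in WT for H2-Oa, and at 2.77 ± 0.45 CPM in KO and 3.12 ± 0.63 CPM in WT for H2-Ob (SD, n = 4 each). H2-Eb2 did not pass the filter, at 0.238 ± 0.039 CPM in KO and 0.314 ± 0.169 CPM in WT. Of the 32 pathway genes with a promoter window, H2-Ob and Ifngr1 held the pattern of X and Y letters.

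No change was called among the factors on the promoter boxes. Of 6 tested, 0 passed over all libraries and 0 in the 1600 series (edgeR), against 1.06% and 1.85% of tested genes. With so few genes called in all, 0 of 6 says little of these factors. Their median was -0.03 over all libraries and -0.09 in the 1600 series, and DESeq2 called 0 over all libraries. At an unadjusted p under 0.05, Nfyb was higher over all libraries, against 20.9% of tested genes in either direction, and Nfya in the 1600 series (edgeR). Rfx5, a subunit of RFX, did not pass the filter, at 0.56 ± 0.197 CPM in KO and 0.338 ± 0.154 CPM in WT (SD, n = 4 each). Of 10 genes upstream of Ciita, 0 passed over all libraries (edgeR and DESeq2), where edgeR called 1.06% of tested genes. Usf1 and Spi1 were the 2 lower at an unadjusted p under 0.05 (edgeR), against 12% of tested genes. In the 1600 series 0 of 10 passed and 4 were lower at an unadjusted p under 0.05 (edgeR), against 9.32% of tested genes. Irf1, an interferon-induced factor that acts on the Ciita promoter, stood at -0.90 ± 0.25 in the 1600 series (SE; edgeR adjusted p = 0.0963) and at 0.41 ± 0.24 in the 1700 series (edgeR adjusted p = 0.350). Spi1, the gene of the myeloid factor PU.1, was lower in every KO library than in every WT library, as were 6.06% of tested genes. It averaged 440.1 ± 63.1 CPM in KO and 542 ± 16.1 CPM in WT (SD, n = 4 each), without passing (edgeR adjusted p = 0.182). Usf1 had the same lack of overlap, at 110 ± 14.9 CPM in KO and 137 ± 7.60 CPM in WT (edgeR adjusted p = 0.160). Irf8, which directs monocyte and dendritic cell fate, averaged 105 ± 17.3 CPM in KO and 126 ± 28.5 CPM in WT (edgeR adjusted p = 0.392).

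Of 7 antigen processing genes, 0 passed over all libraries (edgeR and DESeq2), where edgeR called 1.06% of tested genes. At an unadjusted p under 0.05 there were also 0 (edgeR), against 20.9% of tested genes. Ctsd alone passed in the 1600 series, against 1.85% of tested genes called there. Ctss, the protease that trims the invariant chain, averaged 8107 ± 567 CPM in KO and 7753 ± 757 CPM in WT (SD, n = 4 each), a difference of 0.06 ± 0.11 (SE; edgeR adjusted p = 0.783), and of 0.06 ± 0.13 in the 1600 series (edgeR adjusted p = 0.847). Ifi30, which encodes the thiol reductase of the endosome, averaged 501 ± 68.3 CPM in KO and 435 ± 63.1 CPM in WT (edgeR adjusted p = 0.412). The costimulatory ligand gene Cd86 was higher in every KO library than in every WT library, at 89.6 ± 5.12 CPM in KO and 67.9 ± 12.7 CPM in WT, without passing (edgeR adjusted p = 0.139), and 5.35% of tested genes had every KO library above every WT library.

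The genes most like the mean profile of H2-Aa, H2-Ab1, H2-Eb1 and Cd74 were ranked by the root mean square difference of centred log2 CPM over the 8 libraries. The nearest 10 outside the members were Slamf8, Cd40, St3gal6, Cd83, Sdc3, Mst1r, Ifit3, Olfr56, Map4k3 and Gm7644, at 0.258 to 0.34 log2 units. The other members lay farther off, at 0.468 for H2-DMb1, 0.515 for Ciita, 0.543 for H2-DMb2 and 0.597 for H2-DMa, on ranks 79, 138, 199 and 327. Slamf8, a SLAM family receptor gene, had 82.7, 51.5, 157 and 217 CPM in KO 1 to 4, against 191, 193, 186 and 150.4 CPM in WT 1 to 4. Cd40 had 52.2, 37.3, 117 and 119.9 CPM in KO 1 to 4, against 147, 129, 142 and 92.5 CPM in WT 1 to 4. Both were thus low in KO 1 and KO 2 alone, and several of the others were scarce, with Mst1r and Olfr56 under 1 CPM in every library.

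**Figure D4:**
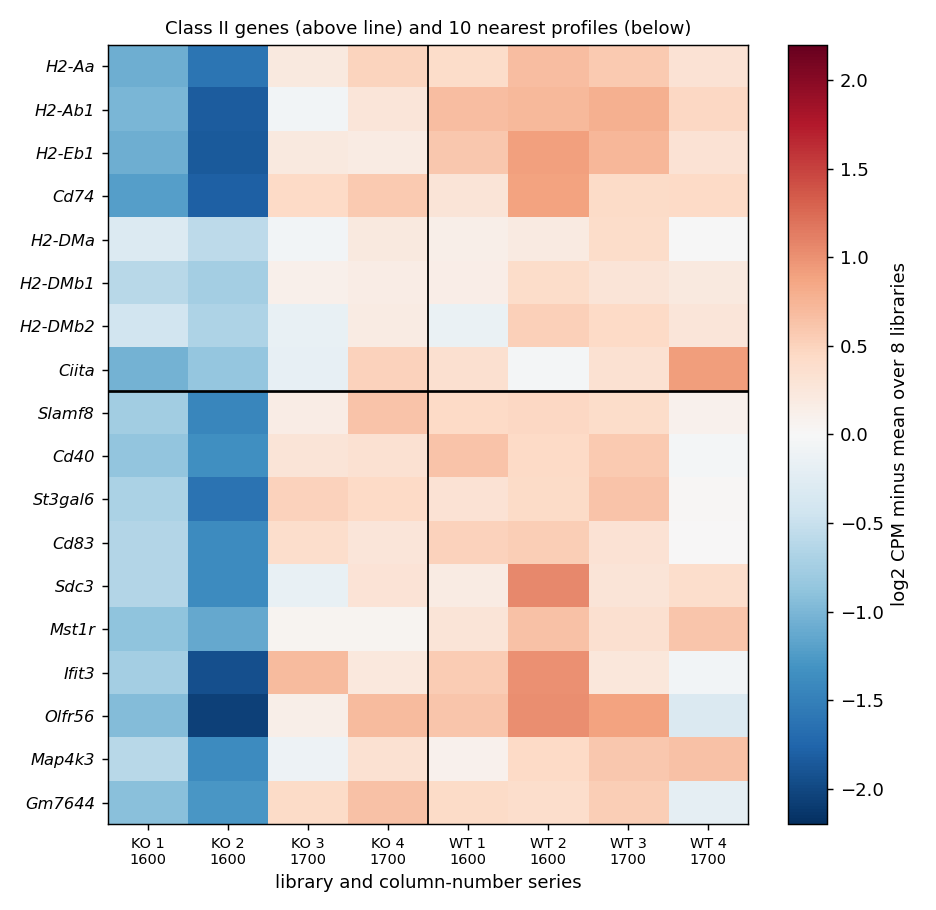
Centred log2 CPM (value minus the mean over 8 libraries, colour scale) of the 8 class II genes, above the line, and of the 10 genes with the nearest profile, below it, with KO libraries left and WT libraries right. KO 1 and KO 2 are blue in all rows, and the H2-DM rows are paler than those of H2-Aa, H2-Ab1, H2-Eb1 and Cd74.

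Markers of other cells that carry class II, and of neutrophils, were set beside these values. Of 14 B cell genes, 3 (Pax5, Ebf1 and Blk) had 0 counts in all libraries and 10 in all, Cd79a and Ms4a1 among them, stayed at or under 1 CPM in every library. Others were present: Cd79b, a chain of the B cell receptor complex, had 17.1 to 33.4 CPM in KO and 16.1 to 35.0 CPM in WT, Ighm had 187 to 329 CPM in KO and 164 to 336 CPM in WT, and Igkc reached 11.2 CPM in WT 4. The whole list summed to 206, 214, 365 and 309 CPM in KO 1 to 4, against 244, 373, 304 and 193.5 CPM in WT 1 to 4, most of it Ighm. Of the plasmacytoid dendritic cell genes Siglech and Klk1 were at 0 in all libraries, and 6 of 8 stayed at or under 1 CPM. The list summed to 97.2 to 145 CPM in KO and 189 to 229 CPM in WT, nearly all of it from Bst2, an interferon-induced gene that monocytes express too. Bst2 fell over all 8 libraries, by 0.71 ± 0.14 on the log2 scale (SE, edgeR adjusted p = 0.0377). Every KO library lay below every WT library for Bst2, as for 6.06% of tested genes.

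Of 7 tested conventional dendritic cell genes, 2 were called lower in the 1600 series, against 0.713% of tested genes. They were Kmo, by 1.08 ± 0.22 (SE, edgeR adjusted p = 0.0352), and Batf3, by 1.37 ± 0.28 (edgeR adjusted p = 0.041), on the log2 scale. Flt3 stood at 0.15 ± 0.23 (edgeR adjusted p = 0.772). In the 1700 series 1 of the 7 was called, Kmo, which rose by 1.06 ± 0.22 (edgeR adjusted p = 0.0395), against 0.276% of tested genes called higher. Of the 10 genes, 3 (Zbtb46, Xcr1 and Clec9a, defining genes of these cells) stayed at or under 1 CPM in every library. The list summed to 196, 163, 688 and 640.2 CPM in KO 1 to 4, against 337, 595, 453 and 333 CPM in WT 1 to 4, and KO 1 and KO 2 were the lowest. Cd209a, the C-type lectin gene that gives most of this sum and that a subset of monocytes also expresses, stood at -2.16 ± 0.49 in the 1600 series (SE; edgeR adjusted p = 0.102) and at 0.95 ± 0.47 in the 1700 series (edgeR adjusted p = 0.3). All 12 neutrophil genes had reads in at least 1 library, and they summed to 2393, 3704, 814 and 629.5 CPM in KO 1 to 4, against 618, 438, 292 and 577 CPM in WT 1 to 4. Of 5 tested neutrophil genes, 2 were called higher in the 1600 series, against 1.14% of tested genes. The calprotectin gene S100a9 rose by 5.59 ± 0.39 there (SE, edgeR adjusted p = 0.00193). Ngp averaged 97.3 CPM in KO 1 and KO 2, against 0.771 CPM in WT 1 and WT 2. For Camp these means were 53.5 and 0.334 CPM, and for Lcn2 271 and 16.3 CPM. Ngp and Camp did not pass the filter. Mmp8 stood at 0.84 ± 0.34 in the 1600 and 0.80 ± 0.34 in the 1700 series (edgeR adjusted p = 0.235 and 0.22). Csf3r alone of the 12 had a lower mean in KO 1 and KO 2, at -0.40 ± 0.31 in the 1600 series (edgeR adjusted p = 0.516). Macrophage genes summed to 563 to 676 CPM in KO and 487 to 696 CPM in WT, and T and NK cell genes to at most 4.49 and 2.65 CPM. Nkg7, the 1 tested T and NK cell gene, averaged 1.67 CPM in KO and 0.434 CPM in WT. It was called higher over all libraries, at 1.92 ± 0.41 (SE, edgeR adjusted p = 0.0433), against 0.223% of tested genes. In the 1600 series it was also called higher, at 2.56 ± 0.50 (edgeR adjusted p = 0.0337), against 1.14%. Nonclassical monocyte genes summed to 178.5 to 248 CPM in KO and 262 to 346 CPM in WT, with all 8 values negative over all libraries. Pou2f2, at 0.13 CPM in KO and 1.88 CPM in WT, was the 1 called lower (edgeR adjusted p = 0.017), against 0.838% of tested genes. In the 1600 series 2 were called lower, against 0.713%, Pou2f2 and Cx3cr1. Pou2f2 was called lower in the 1700 series too, at -4.19 ± 0.65 (SE, edgeR adjusted p = 0.0306), against 1.1% of tested genes. Cx3cr1 stood at -1.30 ± 0.20 in the 1600 series (SE, edgeR adjusted p = 0.0146) and at 0.38 ± 0.19 in the 1700 series (edgeR adjusted p = 0.267). Its interaction was 1.68 ± 0.27 (edgeR adjusted p = 0.0369), against 0.312% of tested genes called positive. Plasma cell genes summed to at most 7.57 CPM in KO and 5.15 CPM in WT. Classical monocyte genes summed to 137730 to 178350 CPM in KO and 114870 to 133170 CPM in WT, nearly all of it Lyz2 and Chil3. Chil3, a chitinase-like gene, had 33758, 44051, 17380 and 18929 CPM in KO 1 to 4, against 12255, 6823, 11812 and 12297 CPM in WT 1 to 4. Ccr2 stood at -0.23 ± 0.20 in the 1600 series (SE, edgeR adjusted p = 0.572). The list was mixed, with 3 of 10 values negative over all libraries. Fn1 was lower in every KO library than in every WT library, at 54.9 ± 15.2 CPM in KO and 118 ± 35.9 CPM in WT (SD, n = 4 each, edgeR adjusted p = 0.0583). It was called lower in the 1700 series, at -1.40 ± 0.27 (SE, edgeR adjusted p = 0.041), against 1.1% of tested genes. The other calls on this list were higher in KO. F13a1 was called in the 1700 series, at 1.46 ± 0.26 (edgeR adjusted p = 0.0395), against 0.276% of tested genes. Chil3, at 2.03 ± 0.25, and Cd14, at 0.97 ± 0.19, were called in the 1600 series (edgeR adjusted p = 0.0141 and 0.0337), against 1.14%. The part of these other transcripts in the class II difference was not tested.

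**Figure D5:**
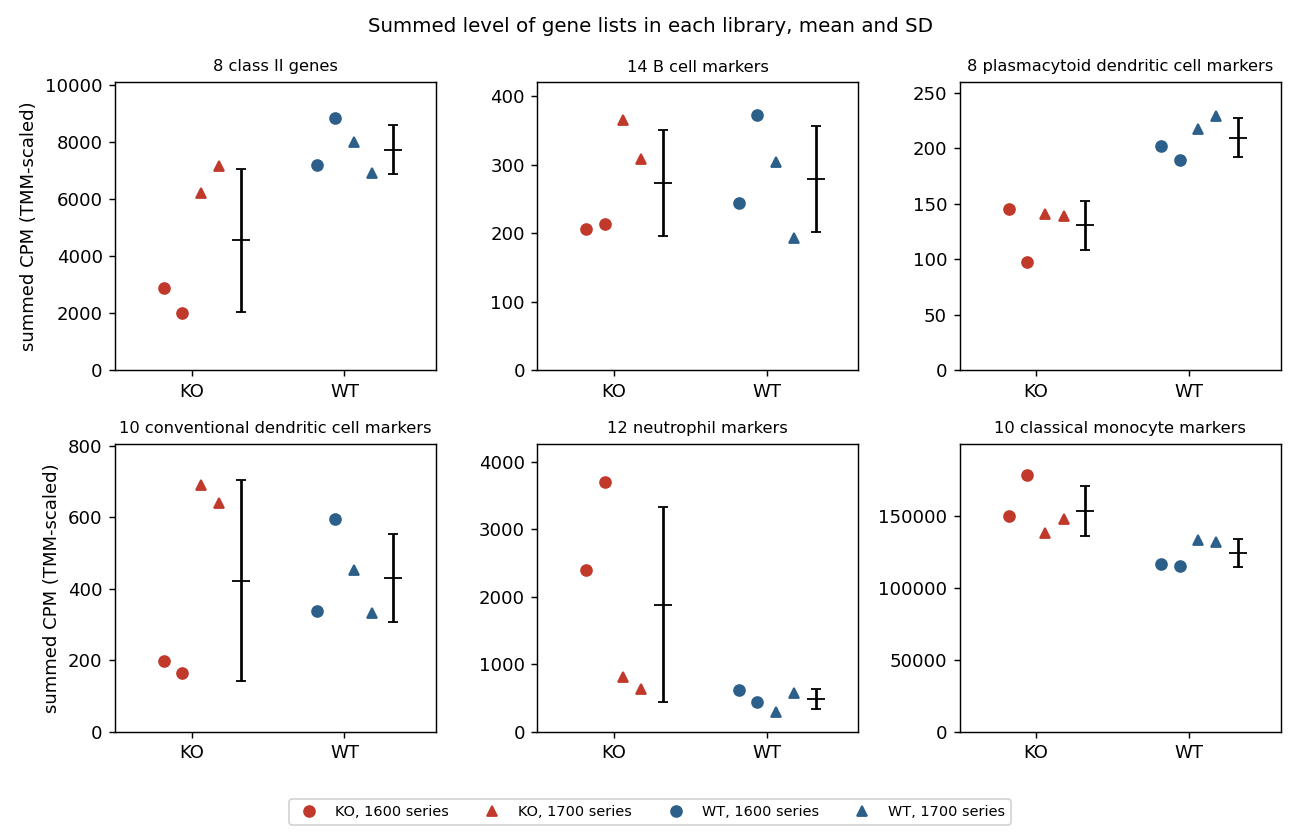
Summed level of the 8 class II genes and of marker lists in each library (TMM-scaled CPM, linear axes from 0 that differ between panels), KO left and WT right, circles for the 1600 and triangles for the 1700 series, with mean and SD. The KO circles are the lowest points for class II and conventional dendritic cell markers and the highest for neutrophil markers, and the 14 B cell markers overlap between genotypes.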

How the data were processed

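RNA from sorted cells was made into cDNA by oligo-dT priming and template switching (SMART-Seq v4) with PCR amplification, per the labels' protocols. Values are the raw gene counts that the authors deposited for the 8 libraries in a single table. The genome build GRCm38, the aligner HISAT2 2.0.5 and the counter featureCounts 1.5.0-p3 come from the submitters' processing notes, and the sources used here give no annotation release, strand setting or filter. Reads from PCR without molecular identifiers do not stand for separate molecules, and limits from counts cover counting error only.

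Groups follow the genotype in the labels, and replicate numbers the titles. Replicate pairs differed by more than sampling noise (chi-square per degree of freedom 16.5 to 76.9), so that each library counted as 1 replicate. Counts were tested with edgeR 4.0.16 in R 4.3.3 (filterByExpr, TMM, robust quasi-likelihood, Benjamini-Hochberg at 0.05), by genotype and, for the series and their interaction, with 4 cells of genotype by series. SEs were derived from the log2 change and the quasi-likelihood F. The filter kept 11222 genes with 99.9% of counts, and simulated counts were used to test the scripts. Profiles used log2 CPM with a prior count of 2.

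GENCODE M21 (GRCm38) gave positions, lengths (longest principal transcript) and GC content, and held 52125 of 56748 gene identifiers. Named genes were the members, 12 pathway genes, any pathway gene called over all libraries or in the interaction, the 10 nearest profiles, and Ly6c2, Ccr2 and Olfr2 as checks of the labels. Of the pathway genes, 1 is not reported here. Ctsd, Cd209a, S100a9, Lyz2, Bst2, Ighm, Igkc, Cd79b, Chil3, Kmo, Batf3, Flt3, Nfya, Nfyb and the scarce marker genes were named after their values were seen. So were Csf3r, Mmp8, Ngp, Camp, Lcn2, Fn1, F13a1, Cd14, Nkg7, Cx3cr1, Pou2f2 and Usf1. Members and lists were chosen with earlier results of these data known. Alternatives changed the scaling factors, the count filter, the tool (DESeq2 1.42.0 or limma-voom, limma 3.58.1), covariates, left-out libraries, and length and GC offsets (mgcv 1.9.3). The tool, covariates and offsets were changed only for the comparison over all libraries, not for the series or their interaction.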

Additional observations from a re-analysis of the deposited data

Results flagged for a closer look

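The genotype difference differed between the column-number series in 3 of 8 members by the edgeR interaction term (1700 minus 1600, adjusted p under 0.05), against 0.784% of tested genes, with log2 values of 2.16 for Cd74, 1.78 for H2-Aa and 1.84 for H2-Eb1. Slamf8, at 1.67, and Cd40, at 1.64, passed too, but both were named for a profile like that of the class II genes, so that their values are a description. In a search of 64 groups of 4 libraries for one far from the other 3, where chance gives about 1 in 20, 2 were found: KO 2 in Ly6c2 (6378 CPM) and WT 4 in Slamf8 (150.4 CPM).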

How the results depend on the processing

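Over all libraries 0 members were called under any of the 18 alternatives run, and each member stayed negative in all of them. The count of all genes called, 119 as reported, was 742 with no filter on low counts, 251 with the series as covariate, 1 with length and GC offsets, 763 with DESeq2, 0 with limma-voom (2352 at an unadjusted p under 0.05), 7 without KO 1 and KO 2, and 0 to 515 with 1 library left out. In the 1600 series 208 genes were called, 973 with no filter and 9 to 373 with 1 library left out, with 5 members called, 8 with no filter and 4 to 6 with 1 library left out. In the 1700 series the 155 calls became 294 with upper-quartile factors, 1342 with no filter and 0 to 1264 with 1 library left out, with 0 members called, 1 with no filter (H2-Ab1) and 0 with any library left out. There H2-Aa turned to 0.039 without KO 3 and 0.041 without WT 3 (range -0.24 to 0.041), and H2-DMa to 0.0013 and 0.10 (range -0.33 to 0.10). The interaction called 88 genes, 645 with no filter and 3 to 628 with 1 library left out, with 3 members called, 5 with no filter, 2 with RLE size factors and 0 to 4 with 1 library left out. The cause of these shifts was not tested. The title numbers gave no sign of pairing: correlations of same-numbered deviations were -0.05 to 0.09, and those of other pairs -0.147 to 0.129. Such correlations cannot exclude a pairing. With the number as a replicate block 244 genes and 0 members were called. H2-DMb2 and Ciita rested on 50 to 406 counts per library, for a counting error of up to 8.45% and 14.1%.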
